A study of Mus musculus with 14 samples.

Results

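The enteric glia genes Sox10, S100b, Gfap, Erbb3, Erbb4, Entpd2, Cdh19 and Cthrc1 were followed through every library of the series. They were taken as a named list of genes that mark these cells, and all 8 were present among the 40481 genes of the bulk table and passed its filter on low counts. The tissue was the muscularis of C57BL/6 mice, the smooth muscle layers and the nerve plexus between them, and the series title puts the question in the contractile function of visceral smooth muscle, in which the long non-coding RNA Carmn is expressed. Bulk RNA-seq covered 4 groups of 3 libraries, from the colon and the jejunum of mice whose genotype is labelled "Carmn iKO" (called KO) and of mice labelled "WT mTmG" (called WT, mTmG being the name of a fluorescent reporter allele). Nuclei from colon were sequenced as 1 library labelled KO and 1 labelled WT. No source used here gives the Cre driver, the induction, an age or a treatment. None says whether libraries came from separate animals, so p-values measure only the spread between these libraries.

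Enteric glia are neural crest derived cells that ensheath the neurons of the enteric ganglia and run with nerve fibres through the muscle. SOX10 is the transcription factor that keeps neural crest and glial identity, and it directs many glial genes. ERBB3 binds neuregulins from axons and signals through a partner receptor, a pathway on which Schwann cells and their relatives depend. GFAP, S100B and the nucleotidase encoded by Entpd2 are the usual labels by which enteric glia are recognised in tissue.

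Bulk libraries held between 24254905 and 44315104 counts. Carmn was not lower in the bulk libraries labelled KO: it was at 494 ± 209 CPM (SD, n = 3) in KO colon against 258 ± 90.2 CPM in WT colon, and at 907.5 ± 89.3 CPM against 257 ± 62 CPM in jejunum (CPM, the count scaled to the library's TMM-adjusted total). The adjusted p by edgeR was 0.234 and 0.0646. In smooth muscle-like nuclei it was lower, at 6.36 UMIs per 10000 in KO and 17.3 in WT (UMI, unique molecular identifier). KO and WT below therefore stand for the labels. KO colon t4 and KO jejunum m1 stood apart in the sums of macrophage markers, with 1101 and 1369 CPM over 8 genes, where the other 10 libraries held between 160.1 and 765.7 CPM. They also had the highest fibroblast marker sums, 13140 and 7657 CPM against at most 6400 CPM elsewhere, and KO jejunum m1 had the highest smooth muscle marker sum, 93640 CPM. Results that turn on these libraries are given without them too.

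No member differed between KO and WT in either tissue at an adjusted p below 0.05. By edgeR's quasi-likelihood test 0 of 8 passed in colon, where 0.388% of all genes tested did (0.115% higher and 0.273% lower in KO), and 0 of 8 in jejunum, where 0.215% did (0.124% higher and 0.091% lower). At an unadjusted p below 0.05 the count was also 0 of 8 in both tissues, against 14.5% and 13.2% of all genes, and 0 of 8 were called by DESeq2 (4.6% and 3.85% of all genes) and limma voom (0.455% and 0.364%) as well. In colon 4 members had a log2 change above 0, namely Gfap, Erbb3, Erbb4 and Cthrc1, and the median over the 8 was 0.06 on the log2 scale, beside 0.00 over all genes. In jejunum 3 were above 0, with a median of -0.21 beside 0.02. In bulk tissue fewer cells of a type and less RNA per cell cannot be told apart. The KO and WT values of every member overlapped in both tissues, while 19.2% and 22.2% of all genes had no overlap.

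Most members had higher values in colon than in jejunum. Of the 8 members 7 were higher in colon in WT, all but Cthrc1, and 7 in KO, all but S100b, with medians of 0.66 in each genotype on the log2 scale, beside 0.04 and 0.03 over all genes. In KO, S100b was above 0 without KO colon t4 (0.18) or KO jejunum m1 (0.14), and Cthrc1 was below 0 without t4 (-0.94). No member passed the adjusted threshold by edgeR, which 1.56% of all genes did in WT (0.694% higher and 0.862% lower in colon) and 1.29% in KO (0.46% higher and 0.833% lower). Of all genes called, 44.6% were higher in colon in WT and 35.6% in KO, or 58.7% and 50.8% when libraries were scaled by total counts only. At an unadjusted p below 0.05 there were 2 of 8 in WT (Sox10 and Entpd2) and 4 of 8 in KO (Sox10, Erbb3, Erbb4 and Entpd2), against 13.1% and 17.7% of all genes. All colon libraries lay on one side of all jejunum libraries for 4 of 8 members in WT and 2 of 8 in KO, beside 22.9% and 19.6% of all genes. In WT, colon lay above for Gfap, Entpd2 and Erbb4, the last at few counts, and below for Cthrc1. In KO it lay above for Sox10 and Erbb3. DESeq2 called Entpd2 in WT and Sox10 and Erbb3 in KO, where it called 5.53% and 6.83% of all genes, and limma voom called 0 of 8 in each, where it called 1.68% and 1.41%. The change with genotype did not differ between the tissues for any member by edgeR (0 of 8 adjusted, 0 of 8 unadjusted, as against 0% and 4.16% of all genes), and DESeq2 (0.182% of all genes) and limma voom (0%) also called 0 of 8. The tissue comparisons in WT and in KO share no libraries, but each shares a group with the KO against WT comparisons.

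**Figure D1:**
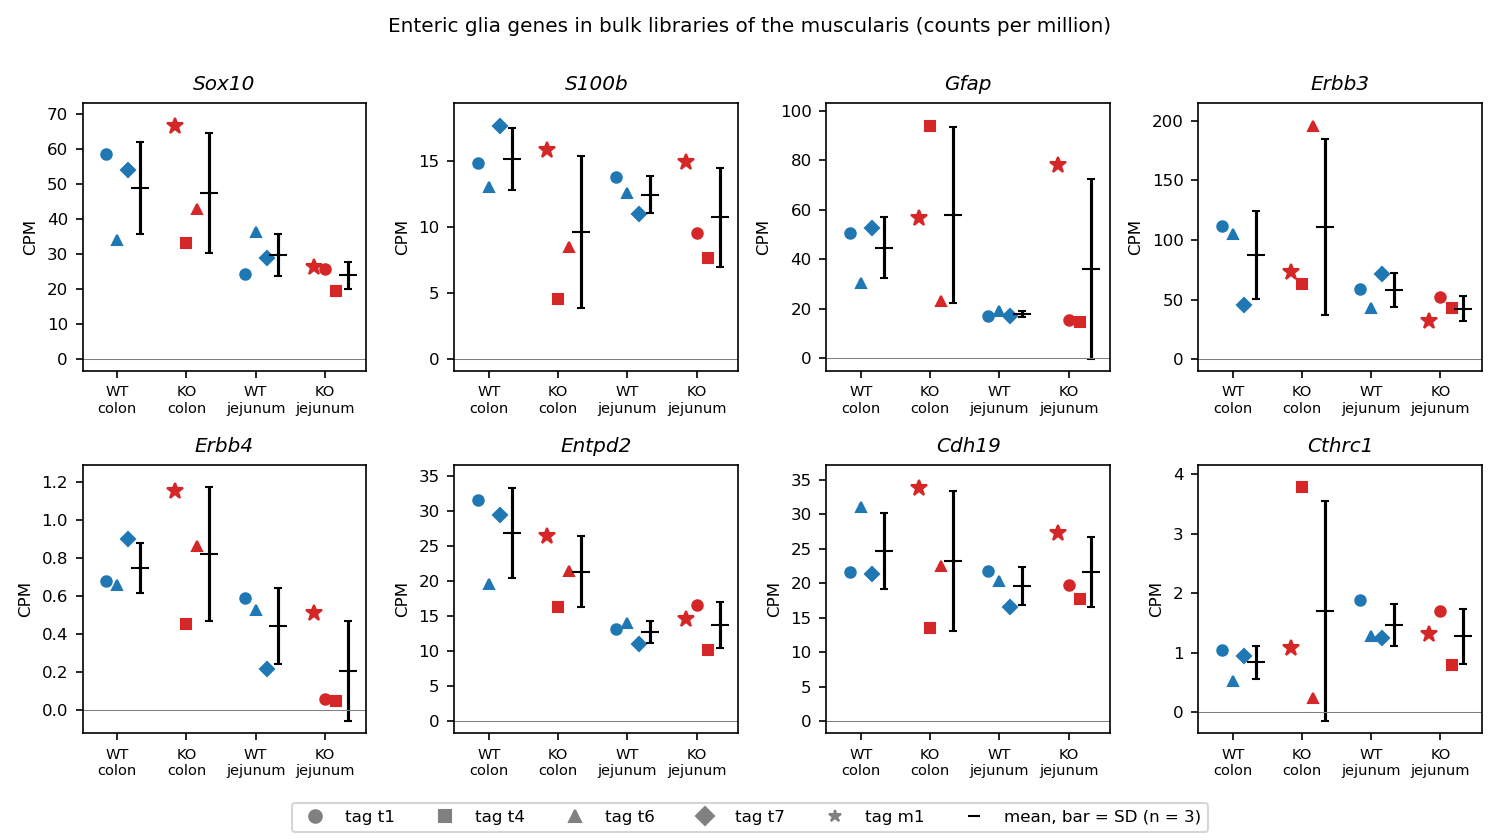
CPM of the 8 enteric glia genes in each of the 12 bulk libraries, by group (blue WT, red KO; marker shape gives the library's tag), with the mean and SD of each group in black (n = 3). KO and WT points overlap in both tissues, and single libraries such as KO colon t4 (93.8 CPM) and KO jejunum m1 (78.1 CPM) set the spread of Gfap.

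Sox10 encodes the glial transcription factor itself and lies at chr15:79154908-79165240 on the minus strand (GRCm38). In colon it measured 58.4, 33.96 and 53.96 CPM in WT t1, t6 and t7, and 66.4, 33.1 and 42.8 CPM in KO m1, t4 and t6. In jejunum it measured 24.2, 36.2 and 28.7 CPM in WT t1, t6 and t7, and 26.4, 25.8 and 19.5 CPM in KO m1, t1 and t4. The genotypes overlapped in both tissues, whereas all 3 KO colon libraries lay above all 3 KO jejunum libraries. The fitted log2 change from jejunum to colon was 0.99 ± 0.285 (SE) in KO, with an adjusted p of 0.109 by edgeR, and 0.715 ± 0.28 in WT, with an adjusted p of 0.291. Without KO colon t4 the change in KO was 1.19 with an adjusted p of 0.0464 by edgeR, and DESeq2 gave 0.97 with 0.0333. Over the 8 alternatives other than leaving out 1 library, by edgeR, DESeq2 or limma voom, the adjusted p reached 0.609. KO against WT differed by -0.04 ± 0.28 in colon (95% interval -0.66 to 0.58) and by -0.32 ± 0.28 in jejunum (-0.94 to 0.30).

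S100b, a calcium-binding protein of glia, lies at chr10:76253853-76261159 on the plus strand. WT colon held 14.9, 13 and 17.6 CPM of it and KO colon 15.8, 4.545 and 8.48 CPM, the lowest in t4. WT jejunum held 13.8, 12.6 and 10.98 CPM and KO jejunum 14.9, 9.59 and 7.70 CPM. KO m1 sat among the WT values in colon and above them in jejunum, and the other 2 KO libraries of each tissue lay below all WT libraries. The log2 change between labels was -0.65 ± 0.39 in colon (adjusted p = 0.476, edgeR) and -0.22 ± 0.39 in jejunum (adjusted p = 0.855). Without KO colon t4 it was -0.32 in colon.

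Gfap encodes the intermediate filament of glia that rises in reactive astrocytes, and lies at chr11:102887336-102900912 on the minus strand. WT colon held 50.6, 30.5 and 52.8 CPM, and KO colon 56.7 (m1), 93.8 (t4) and 23.1 CPM (t6). WT jejunum was narrow at 17.1, 19.1 and 17.3 CPM, and KO jejunum held 78.1 CPM in m1 against 15.3 and 14.7 CPM in t1 and t4. The top value of each tissue was thus a KO library, and it was the library with the highest macrophage marker sum there, while KO colon t6 and KO jejunum t1 and t4 held less Gfap than any WT library of their tissue. The fitted log2 difference was 0.375 ± 0.64 in colon (adjusted p = 0.852, edgeR) and 1.01 ± 0.65 in jejunum (adjusted p = 0.538). It was -0.16 in colon without t4 and -0.27 in jejunum without m1. The same libraries held the most fibroblast markers of their tissue, and KO jejunum m1 the most neuron and smooth muscle markers of its tissue. The part of these cell types in the Gfap values was not tested. Between tissues, WT colon lay wholly above WT jejunum, by 1.32 ± 0.65 (adjusted p = 0.428, and 0.0179 when only those 6 libraries were fitted, both edgeR). Over the 12 fits leaving out 1 library the adjusted p by edgeR ran from 0.171 to 0.719. It reached 0.651 over the 8 further alternatives, by edgeR, DESeq2 or limma voom. In KO, colon against jejunum gave 0.69, which was 0.15 without KO colon t4 and 1.945 without KO jejunum m1.

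Erbb3 and Erbb4 encode the neuregulin receptors on the list. Erbb3 (chr10:128567523-128589652, minus strand) measured 112, 105 and 45.4 CPM in WT colon t1, t6 and t7, and 73.3, 63.1 and 195 CPM in KO colon m1, t4 and t6. WT jejunum held 59.2, 43.1 and 71.4 CPM and KO jejunum 31.8, 52.5 and 42.9 CPM. KO colon lay wholly above KO jejunum, by 1.38 ± 0.46 on the log2 scale (adjusted p = 0.157 with edgeR and 0.0490 with DESeq2). Over the 8 alternatives other than leaving out 1 library, by edgeR, DESeq2 or limma voom, the adjusted p reached 0.687. The 2 groups of colon libraries overlapped, with a difference of 0.34 ± 0.45, which was -0.34 without KO colon t6. Erbb3 is also a receptor of gut epithelium, and the epithelial markers moved beside it. Summed over 9 genes they ran from 100.1 to 4974 CPM in WT colon, from 1286 to 3296 in KO colon, from 406.9 to 944.3 in WT jejunum and from 461.9 to 1242 in KO jejunum. WT colon t7 had the least of both Erbb3 and these markers in its group and KO colon t6 the most of both, but WT colon t6 held the 4974 CPM with less Erbb3 than t1. KO jejunum m1 had the least Erbb3 of its group with 745.5 CPM of markers, above t4. WT jejunum t6 had the least of both in its group, and KO jejunum t1 the most of both. The full order of the 3 libraries differed between Erbb3 and the markers in each of the 4 groups. Of the 9 epithelial markers 0 passed in colon against jejunum in either genotype, beside 1.56% of all genes in WT and 1.29% in KO. All 9 had log2 values above 0 in WT, with a median of 1.96, and 7 did in KO, with a median of 1.005. The medians over all genes were 0.04 and 0.03. The part of the epithelial markers in Erbb3 was not tested.

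Erbb4 (chr1:68032186-69108059, minus strand) was near the lower limit in bulk, at 22, 24 and 23 counts in WT colon, 53, 13 and 34 in KO colon, 16, 18 and 8 in WT jejunum, and 10, 2 and 2 in KO jejunum. In CPM these were 0.680, 0.660 and 0.897 in WT colon, 1.151, 0.451 and 0.861 in KO colon, 0.589, 0.524 and 0.213 in WT jejunum, and 0.508, 0.0549 and 0.0453 in KO jejunum m1, t1 and t4. WT colon lay above WT jejunum in all libraries, and KO jejunum t1 and t4 lay below all the rest. The log2 change from jejunum to colon in KO was 2.19 ± 0.83 (adjusted p = 0.205, edgeR) and 3.95 without KO jejunum m1 (adjusted p = 0.0280), where the KO jejunum side is then 2 libraries with 2 counts each. KO against WT gave 0.15 ± 0.74 in colon and -1.29 ± 0.84 in jejunum.

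Entpd2 encodes an ectonucleotidase that cleaves extracellular ATP, and lies at chr2:25395874-25401321 on the plus strand. Its exons overlap those of Npdc1 on the same strand, so reads may be split between the genes and its counts are uncertain. It held 31.6, 19.6 and 29.5 CPM in WT colon, 26.4, 16.3 and 21.4 CPM in KO colon, 13.2, 14.1 and 10.98 CPM in WT jejunum, and 14.6, 16.6 and 10.1 CPM in KO jejunum. Every WT colon library stood above every WT jejunum library. The log2 difference of 1.075 ± 0.26 had the smallest adjusted p of any member, 0.0685 by edgeR. It passed when only the 6 WT libraries were fitted (0.0328, edgeR), without KO colon t4 (0.0442, edgeR) and with DESeq2 (0.00702). In the other alternatives it did not pass. The adjusted p by edgeR reached 0.296 over the 12 fits leaving out 1 library. Over the 8 further alternatives, by edgeR, DESeq2 or limma voom, it reached 0.219. In KO the log2 difference was 0.635 ± 0.26 (adjusted p = 0.231, edgeR). The labels differed by -0.33 ± 0.25 in colon and 0.11 ± 0.26 in jejunum.

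Cdh19 encodes a cadherin of the Schwann cell and enteric glial lineage, at chr1:110888326-110977584 on the minus strand. It held 21.7, 31.0 and 21.3 CPM in WT colon, 33.8, 13.5 and 22.6 CPM in KO colon, 21.8, 20.4 and 16.6 CPM in WT jejunum, and 27.3, 19.8 and 17.7 CPM in KO jejunum. All 4 groups overlapped. Its log2 differences were -0.08 ± 0.305 (KO against WT in colon), 0.14 ± 0.305 (in jejunum), 0.33 ± 0.305 (colon against jejunum in WT) and 0.11 ± 0.305 (in KO).

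Cthrc1 encodes a secreted collagen triple helix repeat protein, at chr15:39076932-39087121 on the plus strand. It was low, at 1.05, 0.522 and 0.936 CPM in WT colon, 1.08, 3.78 and 0.228 CPM in KO colon, 1.88, 1.28 and 1.25 CPM in WT jejunum, and 1.32, 1.70 and 0.792 CPM in KO jejunum. KO colon t4, the library with the most fibroblast and macrophage markers in colon, held the highest value of the series and KO colon t6 the lowest. WT jejunum lay wholly above WT colon, opposite in direction to the other 7 members, by a log2 change of -0.81 ± 0.75 from jejunum to colon (adjusted p = 0.742, edgeR). The KO against WT change in colon was 1.01 ± 0.75, and -0.335 without t4; the part of those cell types was not tested.

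**Figure D2:**
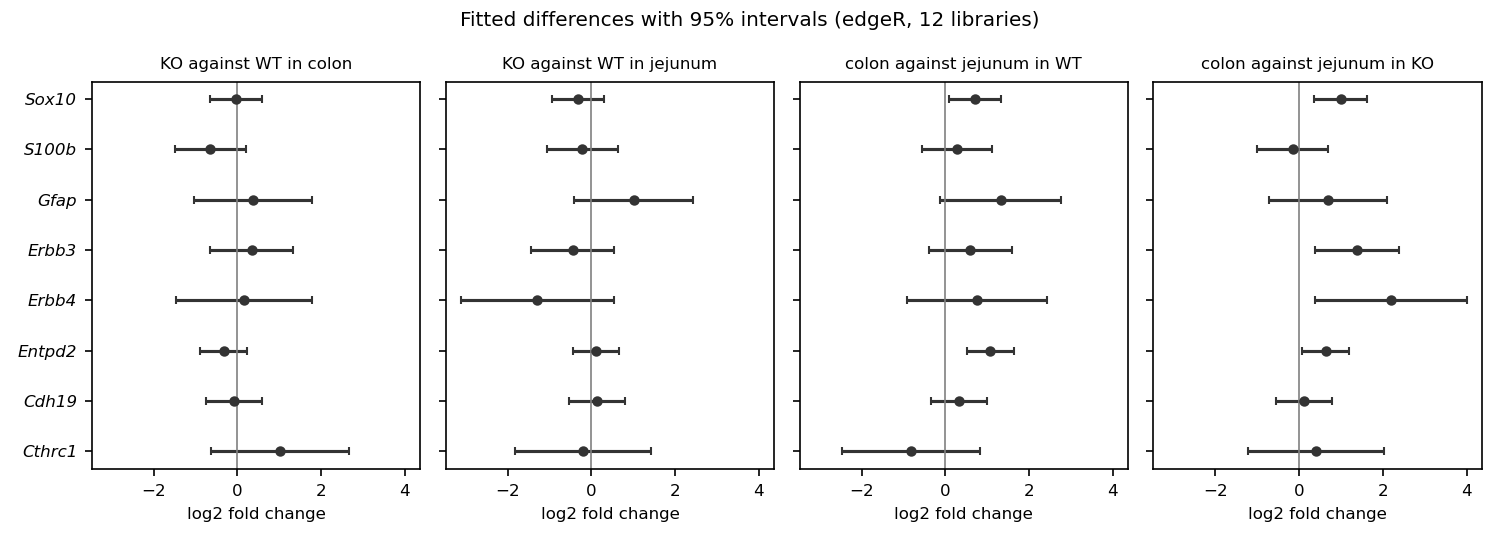
Fitted log2 fold changes of the 8 genes with 95% intervals from the edgeR fit to 12 libraries, in 4 panels (KO against WT in colon and in jejunum, colon against jejunum in WT and in KO). The intervals of KO against WT cross 0 for all 8 genes in both tissues, and those of colon against jejunum lie above 0 for Sox10 and Entpd2 in both genotypes.

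Per exon length, the order of the members in WT colon ran from Sox10 at 15.99 ± 4.27 RPKM (SD, n = 3; RPKM is the CPM per kilobase of exon) through Erbb3 at 14.5 ± 6.08, Entpd2 at 12.6 ± 3.01, Gfap at 10.6 ± 2.91 and S100b at 10.2 ± 1.57 to Cdh19 at 5.76 ± 1.29, Cthrc1 at 0.525 ± 0.175 and Erbb4 at 0.0603 ± 0.0107. The first 5 did not differ from their neighbours beyond their spread. In WT jejunum Sox10 (9.74 ± 1.99), Erbb3 (9.625 ± 2.36) and S100b (8.39 ± 0.958) led, ahead of Entpd2 (5.995 ± 0.752), Cdh19 (4.58 ± 0.634) and Gfap (4.23 ± 0.264). In KO colon Erbb3 led at 18.4 ± 12.2 RPKM, and in KO jejunum Gfap did at 8.54 ± 8.63, where the SD exceeds the mean. Each lead rests on 1 library. Without KO colon t6, at 32.46 RPKM, Erbb3 lay below Sox10 in both remaining libraries (12.2 against 21.8 RPKM in m1). Without KO jejunum m1, at 18.5 RPKM, Gfap had 3.63 and 3.49 RPKM, below Sox10, Erbb3 and S100b in both remaining libraries.

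Other genes of enteric glia were read from a list of 14 that holds no member. None of them passed in KO against WT in colon or jejunum by edgeR (0 of 14 in each). At an unadjusted p below 0.05 there were 0 and 2 of 14, beside 14.5% and 13.2% of all genes. In WT, 1 of 14 rose in colon against jejunum and 1 fell, beside 0.694% and 0.862% of all genes. Col28a1, a collagen gene of non-myelinating glia, was at 25.5 CPM in colon and 3.21 CPM in jejunum, a log2 change of 2.99 ± 0.40 (adjusted p = 0.00623, edgeR). Ednrb, the endothelin receptor needed for gut colonisation by neural crest cells, was at 25.9 CPM in colon against 57.4 CPM in jejunum (-1.15 ± 0.23, adjusted p = 0.0340). Ncam1, a neural adhesion molecule, had a log2 value of 0.83 ± 0.19 for colon against jejunum in KO, with an adjusted p of 0.0572. The 14 had median log2 values of 0.43 in WT and 0.91 in KO for colon against jejunum. At an unadjusted p below 0.05 by edgeR there were 6 of 14 in WT and 9 of 14 in KO, beside 13.1% and 17.7% of all genes. Colon and jejunum libraries did not overlap for 6 of 14 in each genotype, beside 22.9% and 19.6% of all genes. Markers of enteric neurons moved beside these values: summed over 14 genes, they ran from 1206 to 1820 CPM in WT colon and from 760.3 to 1020 CPM in WT jejunum, and from 1594 to 1909 and 734.0 to 1861 in KO. The 1861 CPM is KO jejunum m1, and the other KO jejunum libraries held 798.6 and 734.0 CPM, below all colon libraries. Their part in the glial values was not tested.

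Among 13 ligands and other receptors of the ErbB family, 0 passed in KO against WT in either tissue by edgeR (1 of 13 at an unadjusted p below 0.05 in each, beside 14.5% and 13.2% of all genes). In colon against jejunum 1 of 13 fell in WT and 1 of 13 rose in KO, beside 0.862% and 0.46% of all genes. At an unadjusted p below 0.05 by edgeR there were 4 of 13 in each genotype, beside 13.1% and 17.7% of all genes. Nrg3, a neuregulin that binds ERBB4, was higher in colon than in jejunum in KO, at 13.6 against 3.73 CPM (log2 1.86 ± 0.38, adjusted p = 0.0437). Nrg1, the main ligand of ERBB3, had 5.58 against 2.54 CPM there (1.13 ± 0.30, adjusted p = 0.0913). Nrg4 had 1.66 CPM in WT colon against 5.67 CPM in WT jejunum (-1.77 ± 0.44, adjusted p = 0.0803), and Egf, an EGF receptor ligand and the gene that fell, had 0.933 CPM in WT colon against 4.92 CPM in WT jejunum (-2.39 ± 0.51, adjusted p = 0.0428). In KO jejunum Egf had 0.902 CPM (-2.465 ± 0.51 against WT jejunum, adjusted p = 0.0830). Families of single members were also read. Cdh2, N-cadherin, was the gene that rose among 6 other cadherins, from 27.1 to 53.4 CPM between KO jejunum and KO colon (0.98 ± 0.19, adjusted p = 0.0347). Of the 2 other SoxE genes, 6 ectonucleotidases, 4 intermediate filament genes and 7 S100 genes, 0 passed in any of the 5 comparisons by edgeR.

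Each member's nearest genes were sought as a description over the 12 libraries, by Pearson correlation of log2 CPM among 14280 other genes (14281 for Erbb4 and Cthrc1). The points share tissue, genotype and cell content. Sox10 was closest to Adgrb1 (r = 0.974), Jph4 (0.960) and Dlgap1 (0.953), Entpd2 to Scgn (0.951), Calb2 (0.937) and Jph4 (0.935), and S100b to Stmn4 (0.943), 2900041M22Rik (0.918) and Lynx1 (0.905). Gfap was closest to Ldlrad4 (0.953), Fbxw7 (0.936) and P4ha3 (0.926). Erbb3 was closest to Trpm4 (0.957), Camsap3 (0.955) and Gal3st1 (0.947), Erbb4 to Gpr45 (0.885), Lgals3bp (0.884) and Stmn3 (0.881), Cdh19 to Prps2 (0.898), H2-Aa (0.833) and Cd74 (0.832), and Cthrc1 to Dio2 (0.898), Pygl (0.893) and Afg3l1 (0.864). Without the 2 libraries farthest from the median, r fell to 0.551 for Cthrc1 with Dio2 and stayed at 0.947 for Sox10 with Adgrb1. Within the list Sox10 and Entpd2 lay closest together (r = 0.902, n = 12 libraries), then Sox10 and Erbb4 (0.754) and S100b and Cdh19 (0.709). Erbb3 with Cthrc1 gave the lowest value, -0.581.

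The colon nuclei showed which cells the 8 genes came from. After filtering, 2481 nuclei of the WT library and 1499 of the KO library fell into 21 clusters, built without the members. Clusters 3, 4 and 8 were called glia-like from markers that do not include the members: 6 of 11 markers passed in cluster 3, 8 in cluster 4 and 6 in cluster 8. Their leading genes by fold over other nuclei were Lrrc9, Slc18a2 and Cfap44 in cluster 3, Slc22a22, Gm2115 and Erbb4 in cluster 4, and A330049N07Rik, Rasgef1c and Col28a1 in cluster 8. Cluster 12, with 40 barcodes and a median of 32190 UMIs, passed no more than 2 markers of any list and stayed unnamed. The libraries share 11 barcodes, of which 4 were among the nuclei kept.

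Glia-like nuclei held most UMIs of every member. In both libraries together they held 84.4% of the Cthrc1 UMIs, 79.0% of Erbb4, 77.4% of Cdh19, 75.6% of Sox10, 72.2% of Gfap, 69.1% of S100b, 63.0% of Erbb3 and 58.6% of Entpd2, while they made up 14.8% of all UMIs in WT and 9.85% in KO. Per UMI the excess over other nuclei ran from 9.65-fold for Entpd2 (95% interval 7.50 to 12.45, exact, counting error only) to 37.0-fold for Cthrc1 (21.9 to 66.2). Cluster 12 held 61 Sox10, 52 Gfap and 1959 Cdh19 UMIs. Outside it, Sox10 had 24 UMIs in all remaining nuclei, S100b 9, Gfap 31 and Cthrc1 7. Smooth muscle-like nuclei, which should lack these genes, held 1 Sox10 UMI in 771 WT nuclei and 1 in 403 KO nuclei, and no Cthrc1 UMI. In both libraries together they held 24 Erbb3, 14 Erbb4, 6 Entpd2, 4 Gfap and 1 S100b UMIs. Cdh19 had 0.364 UMIs per 10000 in the WT ones and 0.166 in the KO ones.

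Other classes held some UMIs of Erbb3, Entpd2, Cdh19 and Gfap. Erbb3 reached 1.87 UMIs per 10000 in epithelial-like nuclei of WT (105 UMIs in 85 of 331 nuclei) and 1.65 in KO, beside 0.0798 and 0.0553 in smooth muscle-like nuclei. Entpd2 had 3 UMIs in fibroblast-like cluster 20 of WT (33 nuclei) and 18 UMIs in 14 of 65 nuclei of KO, or 0.893 per 10000. Cdh19 reached 7.59 and 12.3 per 10000 in lymphatic endothelial-like nuclei of WT and KO, but this came from 6 of 50 and 5 of 33 nuclei, and 1 nucleus gave 38 of 77 and 79 of 124 UMIs. Gfap in the same class had 15 UMIs in 4 KO nuclei, 11 of them in 1. In WT and KO, Cdh19 also had 5.81 and 0.0664 per 10000 in macrophage-like and 5.13 and 2.21 in B lymphocyte-like nuclei. It had 2.24 and 0.133 in interstitial cell of Cajal-like and 1.55 and 0.130 in epithelial-like nuclei. Endothelial-like (0.931 and 1.92) and fibroblast-like nuclei (0.212 and 0.890) went the other way. All non-glial nuclei outside cluster 12 held 1.17 and 0.908. Some class names are loose. The B lymphocyte-like cluster passed 7 B lymphocyte and 6 T lymphocyte markers. Cluster 16, with 115 of the 173 WT nuclei called interstitial cell of Cajal-like, passed 3 markers of that type and 3 of smooth muscle.

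**Figure D3:**
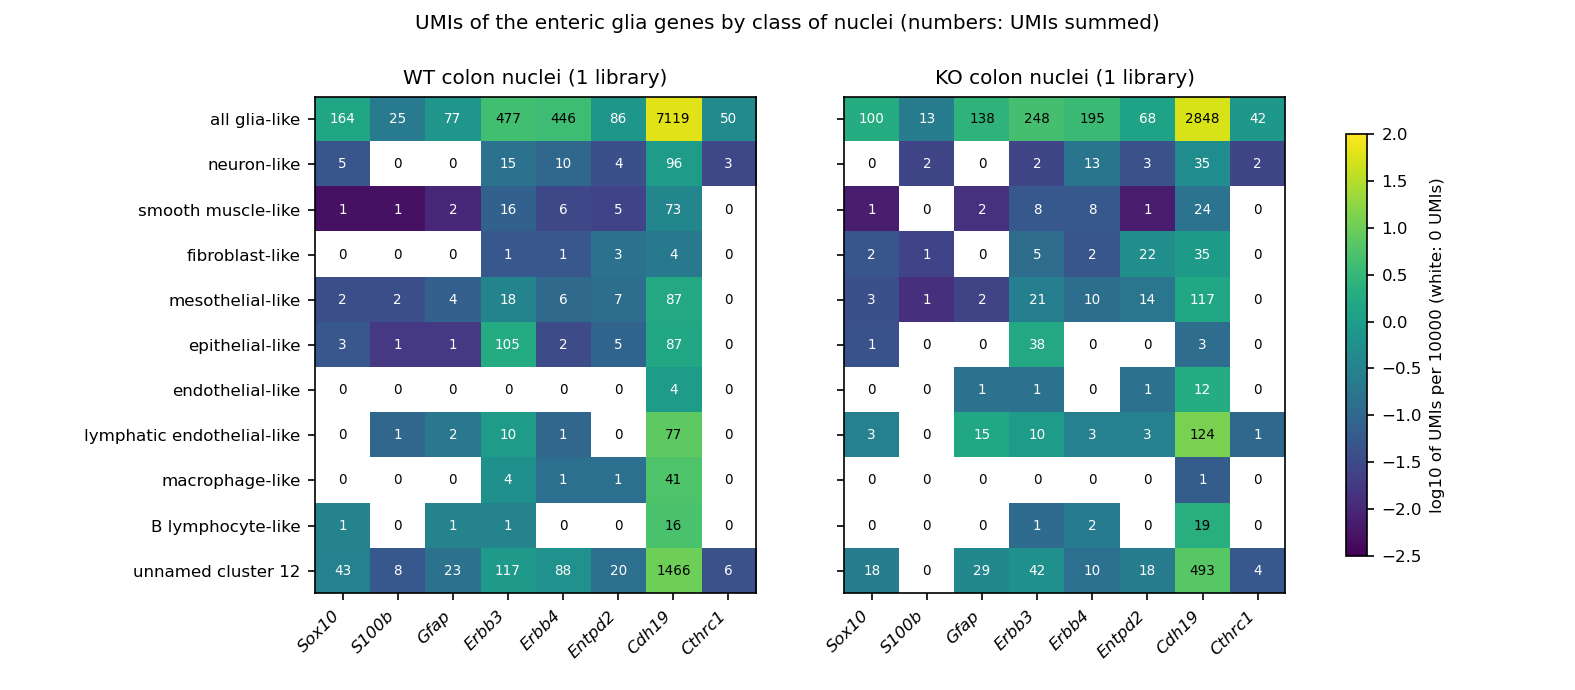
UMIs of the 8 genes by class of colon nuclei in the WT and KO libraries (1 each); colour gives log10 of UMIs per 10000, white is 0 UMIs, and the number in each cell is the summed UMIs. The top row, all glia-like nuclei, holds the highest level of every gene in both libraries, and Erbb3 shows a second level in epithelial-like nuclei (105 and 38 UMIs).

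Within glia-like nuclei the ratio of KO to WT was highest for Gfap among the 8 genes. It had 77 UMIs in 57 of 467 WT nuclei and 138 UMIs in 56 of 183 KO nuclei, or 0.690 and 2.62 per 10000, a ratio of 3.799 (95% interval 2.85 to 5.09; exact, counting error only, with 1 library per genotype and hence no test). The ratio was 3.09 in cluster 3, 3.35 in cluster 4 and 10.97 in cluster 8, and between 3.44 and 4.45 under the 10 other definitions of the glia-like nuclei. The highest count in 1 nucleus was 4 in WT and 10 in KO. Of 5092 genes with at least 50 UMIs in these nuclei, 0.786% had a ratio of at least 3. In all other nuclei Gfap also had a ratio above 1, of 2.01 (1.27 to 3.23), from 33 UMIs in WT and 50 in KO. Without cluster 12 it was 2.54 (1.145 to 6.04), from 10 UMIs in WT and 21 in KO, 11 of the latter in 1 nucleus. Median UMIs per glia-like nucleus were 1857 in WT and 2273 in KO.

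Entpd2 and Cthrc1 were also above 1.5 in ratio, so that 3 of the 7 members with at least 50 UMIs were, beside 8.44% of those genes, while 0 of 7 were at or below the inverse of 1.5, beside 9.54%. The count of 3 depends on the definition of these nuclei: over the 10 others Entpd2 ranged from 1.56 to 3.765, Cthrc1 from 1.09 to 3.81, the lowest with at least 2 Cdh19 UMIs after thinning, and Sox10 from 1.19 to 2.14. Entpd2 had 0.771 per 10000 in WT and 1.29 in KO (ratio 1.68, 1.20 to 2.33), and a like ratio in all other nuclei, 1.75 (1.18 to 2.62), or 1.97 (1.19 to 3.31) without cluster 12. Cthrc1 had 0.448 and 0.798 (1.78, 1.15 to 2.74), from 50 UMIs in WT and 42 in KO. Sox10 had 1.47 and 1.90 (ratio 1.29, 0.998 to 1.67), and was found in 125 WT nuclei and 65 KO nuclei. Erbb3 had 4.275 and 4.71 (1.102, 0.9415 to 1.288) and S100b 0.224 and 0.247 (1.102, 0.518 to 2.24), the latter from 25 and 13 UMIs only. The level of Cdh19 was 63.8 in WT and 54.1 in KO (0.848, 0.812 to 0.886), below 1 in all 3 clusters and lowest in cluster 8 (108 and 66.5, ratio 0.614).

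Erbb4 had 3.997 per 10000 in WT and 3.70 in KO (0.927, 0.779 to 1.099) over all glia-like nuclei. Cluster 8 held 32 UMIs in 12 of 70 WT nuclei and 3 UMIs in 3 of 33 KO nuclei, a ratio of 0.137 (0.0269 to 0.438), where clusters 3 and 4 had 1.33 (0.897 to 1.94) and 0.940 (0.769 to 1.14). Of the ligands, Nrg1 had 64 UMIs in 26 of the WT glia-like nuclei, 14 of them in 1 nucleus, and 2 UMIs in the KO ones (0.574 and 0.0380 per 10000, ratio 0.0662, 0.00785 to 0.249). Macrophage-like nuclei held 0 Nrg1 UMIs per 10000 in WT and 0.199 in KO. In interstitial cell of Cajal-like nuclei the ratio was 1.485 (0.698 to 3.02), and in epithelial-like nuclei 1.22 (0.0207 to 23.4). The ratio of Nrg1 was below 1 in several other classes. It was 0.0393 in fibroblast-like nuclei (2.59 and 0.102 per 10000, the WT value from 49 UMIs in 4 nuclei), 0.0729 in smooth muscle-like nuclei (19 UMIs and 1 UMI) and 0.793 in neuron-like nuclei (2.80 and 2.22 per 10000). Nrg3 was highest in neuron-like nuclei, at 113 and 110 per 10000, and reached 21.0 and 16.2 in glia-like nuclei.

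**Figure D4:**
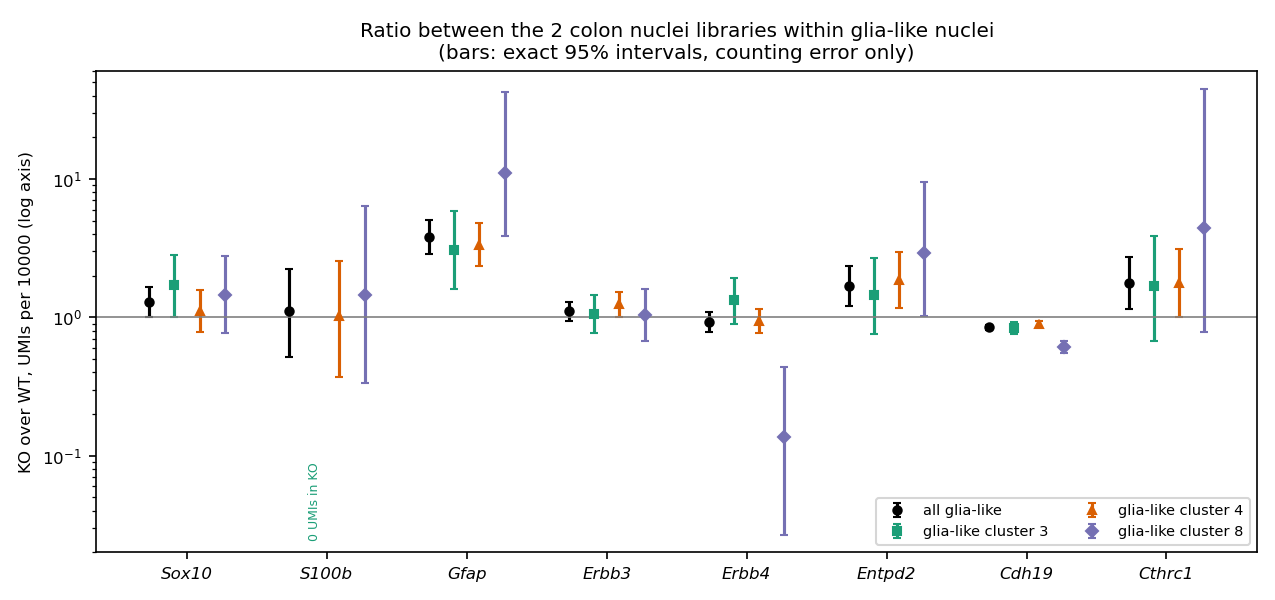
Ratio of KO to WT, in UMIs per 10000 on a log axis, for each of the 8 genes in all glia-like nuclei and in clusters 3, 4 and 8; bars are exact 95% intervals of counting error, and each genotype is 1 library. Gfap lies above 1 in all 3 clusters (3.09, 3.35 and 10.97), Cdh19 below 1 in all 3, and Erbb4 in cluster 8 at 0.137.

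The share of glia-like nuclei was 18.8% in WT (467 of 2481; 17.3 to 20.4, exact Clopper-Pearson) and 12.2% in KO (183 of 1499; 10.6 to 13.97). Cluster 3 held 8.91% (7.82 to 10.1) and 4.403% (3.42 to 5.57), beside 7.09% (6.115 to 8.18) and 5.604% (4.49 to 6.89) for cluster 4. Cluster 8 held 2.82% (2.21 to 3.55) and 2.20% (1.52 to 3.08). These intervals cover counting error only, and with 1 library per genotype the difference between the labels was not tested. Where naming needed detection in 10% of a cluster, cluster 3 was not called glia-like, and the shares were 9.915% and 7.805%. Neuron-like nuclei were 4.76% and 4.14%, and glia-like nuclei were 79.8% (76.3 to 83.0) and 74.7% (68.8 to 80.0) of glia-like and neuron-like nuclei together. Macrophage-like nuclei took 1.73% in WT and 7.87% in KO, and all shares move with one another. When each nucleus was thinned to 500 UMIs, with no clusters used, at least 2 Cdh19 UMIs were found in 14.1% of WT nuclei and 9.14% of KO nuclei (0.130% and 0.248% of smooth muscle-like nuclei). At least 2 UMIs of the 11 glial markers were found in 5.16% and 6.40%, the opposite order, and at least 1 in 12.8% and 11.2%. Within glia-like nuclei 2 such UMIs were found in 25.3% of WT and 45.4% of KO nuclei, so this definition took a larger part of them in KO, while 2 Cdh19 UMIs were found in 70.7% and 67.8%. In the bulk colon libraries the 8 members summed to between 222.4 and 290.7 CPM in WT and between 228.7 and 314.8 CPM in KO. Erbb3, which epithelial-like nuclei also held, gave 111.8 of the 290.7 CPM (WT t1) and 195.3 of the 314.8 CPM (KO t6). The 11 glial markers summed to between 325.6 and 437.3 CPM in WT and between 263.3 and 434.2 CPM in KO.

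**Figure D5:**
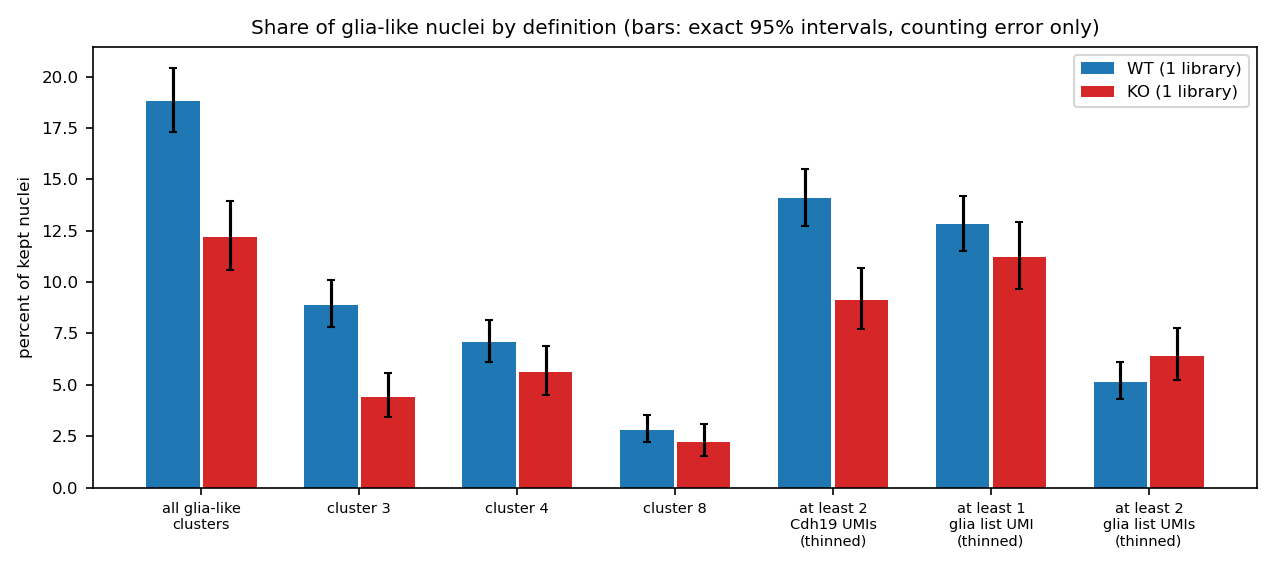
Share of glia-like nuclei among all kept colon nuclei of WT (blue) and KO (red), 1 library each, for all glia-like clusters, each cluster, and 3 definitions without clusters after thinning to 500 UMIs; bars are exact 95% intervals of counting error. The clusters give 18.8% and 12.2%, and 2 or more UMIs of the glial markers give 5.16% and 6.40%.

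The nuclei libraries also hold counts of accessible chromatin regions, which the authors listed separately for each library. Within 2 kb of a start, a region was listed for S100b in WT only and for Gfap in KO only, and for no member in both, so that levels could not be set against each other between the labels. The S100b region, chr10:76253342-76254220 (GRCm38), spans the gene's start. It held 16 counts in glia-like nuclei and 46 in all others, a ratio per count of 2.66 (1.41 to 4.79), beside a median of 0.896 over all regions with at least 20 counts in WT. The Gfap region, chr11:102900565-102901586, lies at the most upstream annotated start, with its centre 163 bases before it. It held 18 and 40 counts, a ratio of 4.94 (2.66 to 8.81), beside a median of 0.934 in KO, where 5.02% of regions reached 3. A second Gfap region inside the gene was listed in both libraries, with a ratio of 0.851 (0.376 to 1.697) in WT and 2.235 (1.05 to 4.32) in KO. Erbb3 had a region inside the gene in both libraries, with 9 counts in glia-like nuclei and 106 in others in WT, and 0 and 37 in KO. Erbb4 had 7 regions in WT and 3 in KO, and Cdh19 2 and 1, all inside the gene. Cdh19 in WT had 8 counts in glia-like nuclei and 15 in others at chr1:110942976-110943903, a ratio of 4.08 (1.5 to 10.3). For Sox10, Entpd2 and Cthrc1 no region was listed in the gene or near a start.

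The 250 bases before the RefSeq start (GRCm38.p6) of these 2 genes are shown because S100b has its listed region over them and Gfap does not, its KO region lying at another start. The S100b stretch is chr10:76253586-76253835 on the plus strand and the Gfap stretch is chr11:102897201-102897450 on the minus strand, both written 5′ to 3′ with CCAAT, or ATTGG on the other strand, in capitals.
S100b: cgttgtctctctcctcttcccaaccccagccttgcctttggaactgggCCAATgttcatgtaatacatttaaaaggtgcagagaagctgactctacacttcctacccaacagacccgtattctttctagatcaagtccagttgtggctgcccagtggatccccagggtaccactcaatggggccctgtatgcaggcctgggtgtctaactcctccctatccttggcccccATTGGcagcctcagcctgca
Gfap: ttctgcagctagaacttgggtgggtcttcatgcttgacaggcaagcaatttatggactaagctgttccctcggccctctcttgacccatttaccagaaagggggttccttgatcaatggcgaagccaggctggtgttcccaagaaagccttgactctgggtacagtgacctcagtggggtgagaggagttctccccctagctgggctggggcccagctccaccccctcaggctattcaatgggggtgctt
The S100b stretch holds 2 CCAAT matches and the Gfap stretch 0, and 33.8% of all 32851 such stretches hold at least 1. The SOX-type words ACAATG and ACAAAG, searched on both strands, were in neither, nor in those of Erbb4 and Entpd2, and 25.2% of all stretches hold at least 1 of them. Promoters were matched for 4 of the 8 members.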

How the data were processed

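Total RNA of 12 bulk libraries and nuclei of 2 colon libraries were sequenced by the authors. Bulk values came as raw counts in a single deposited table, keyed by Ensembl identifier. STAR 2.0.4b, featureCounts 1.4.5 and GRCm38 are named in the submitters' processing notes, and no source used here states the use of strand. Of 40757 entries, 276 repeated an identifier with equal values and were dropped. Replicate pairs differed by more than sampling noise. The authors also deposited, per nuclei library, a matrix of counts of genes and accessible regions, made with cellranger-arc, per the file headers. All gene values were even and were divided by 2, so that a UMI is an inference from the values.

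Genes kept by filterByExpr (20886) were fitted over all 12 libraries with edgeR 4.0.16 (TMM, robust quasi-likelihood, R 4.3.3) and p-values adjusted by Benjamini-Hochberg over all genes, threshold 0.05. DESeq2 1.42.0, limma 3.58.1, other scalings and filters and leaving out each library were the alternatives. The fit was tested on simulated data. RPKM used GENCODE M21 exon lengths. No block was used in the main fit, since no source used here says that tags mark animals, and a fit with the tag as block was an alternative. Libraries of equal tag did not vary together, but so few pairs cannot show that they are unpaired.

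Nuclei with at least 500 UMIs and at most 5% mitochondrial UMIs were kept, and the 6% with the highest doublet score per library dropped, since the automatic threshold marked 203 and 3. Clusters were built in scanpy 1.11.5 (2000 genes without the members, 30 components, resolution 1) and named from marker lists, at least 3 markers at 2-fold in at least 5% of a cluster. The 5%, the thinning and the 10% rule were chosen after seeing the data. Intervals are exact at 95% and cover counting error only.

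The members and gene lists were chosen with earlier results of these data known. The text names all members, up to 4 genes of each other list by smallest p, the 3 genes most like each member, and the leading genes of glia-like clusters.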

Additional observations from a re-analysis of the deposited data

How the results depend on the processing

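Leaving out single libraries changed the sign of several member changes that passed no threshold. In KO against WT in colon the lowest and highest log2 values over the 12 fits were -0.36 and 0.16 for Sox10, -0.16 and 0.78 for Gfap, -0.34 and 0.62 for Erbb3, -0.17 and 0.44 for Erbb4, -0.45 and 0.19 for Cdh19, and -0.335 and 1.57 for Cthrc1. In jejunum they were -0.27 and 1.37 for Gfap, -0.062 and 0.28 for Entpd2, -0.089 and 0.25 for Cdh19, and -0.50 and 0.038 for Cthrc1. For the difference between tissues they were -0.047 and 0.48 for Sox10, -1.17 and 0.68 for Gfap, -0.59 and 0.054 for Cdh19, and -0.13 and 1.785 for Cthrc1. For colon against jejunum in KO they were -0.72 and 0.18 for S100b, -0.26 and 0.385 for Cdh19, and -0.94 and 0.92 for Cthrc1. The same comparison gave S100b 0.025 with total counts only and Cthrc1 -0.37 with limma voom. The replicate block, with the tag within each genotype, gave Cdh19 -0.042 there, called 0 of 8 members in the 3 comparisons it allows, and lowered the genes called from 325 to 29 in WT and from 270 to 3 in KO. Whether equal tags mark 1 animal is not known from the sources used here. Same-tag pairs had deviations correlated at 0.1, -0.008 and 0.061 in WT and at -0.163 and -0.095 in KO.

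The members called in colon against jejunum were 0 by edgeR over all libraries. In WT they were 1 with DESeq2 and 2 when only the 6 libraries compared were fitted, and from 0 to 1 when 1 library was left out. In KO they were 2 with DESeq2 and from 0 to 1 when 1 library was left out. All genes called numbered 960 (colon) and 805 (jejunum) with DESeq2 in KO against WT, where edgeR called 81 and 45, and 0 and 21 when only the 6 libraries were fitted. In colon against jejunum the same fits gave 1156 and 904 in WT, and 1427 and 4 in KO. For the difference between tissues DESeq2 called 38 genes and edgeR 0. With total counts only, 26 genes were called for KO against WT in jejunum, and the median log2 value of all genes for colon against jejunum in KO moved from 0.03 to 0.14. The cause was not tested.

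The glia-like share in WT was 20.45% with at least 1000 UMIs per nucleus, 15.99% with at least 300, 11.9% with UMIs of at least 2 glial markers and no clusters, 9.915% where naming needed detection in 10% of a cluster, and 14.1% and 5.16% after thinning to 500 UMIs with at least 2 UMIs of Cdh19 or of the glial markers. In KO the last 3 gave 7.805%, 9.14% and 6.40%, and UMIs of at least 2 glial markers gave 11.01%. Members above 1 in the KO to WT ratio were 6 of 8, and 5 or 6 under the 10 alternatives. The median ratio over all genes with at least 50 UMIs in these nuclei was 0.977. The counting intervals of Sox10, Erbb3 and S100b included 1. With 5 kb around a start in place of 2 kb, 2 members had a region in both libraries, where 0 did at 2 kb. Few UMIs of S100b and few bulk counts of Erbb4 limit their precision.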
